A study of Mus musculus with 35 samples.

Results

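The genes described here are 9 markers of the striatal projection neuron, which were selected on their spread between the libraries of this series. They are Drd1, Drd2, Adora2a, Ppp1r1b, Penk, Rgs9, Tac1, Pde10a and Adcy5, found by their symbols among the 21203 protein-coding genes of the table. All 9 were present and all 9 passed the filter on low counts, with at least 67 counts in each library, the lowest being that of Adora2a. Since the spread between mice chose these genes, their levels and differences are given as a description, without tests.

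Projection neurons are the principal neurons of the striatum, the input station of the basal ganglia that selects and invigorates movement. They are inhibitory and fall into a direct and an indirect population. Neurons of the direct pathway carry the D1 dopamine receptor (Drd1) and the tachykinin precursor that yields substance P (Tac1). Neurons of the indirect pathway carry the D2 dopamine receptor (Drd2), the adenosine receptor Adora2a and the enkephalin precursor (Penk). Both share a signalling chain in which Adcy5 makes cyclic AMP, Pde10a breaks it down and Rgs9 shortens the signal of G proteins. In that chain Ppp1r1b, known as DARPP-32, inhibits protein phosphatase 1 in its phosphorylated form. Dopamine reaches these neurons through axons from the midbrain, whereas the cell bodies that transcribe the dopamine transporter gene lie in the midbrain itself.

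RNA-seq was performed on the left brain of C57BL/6NCrl mice, with 1 library for each of 34 mice. Sham mice (n = 5) had neither injury nor treatment, and the other mice had a closed head injury followed by an injection of PBS (n = 5 at 1 week post-injury, wpi, and n = 4 at 3 wpi), of naïve MSCs, or of MSCs expressing interleukin-4 (IL-4 MSCs, n = 5 each at 1 wpi and at 3 wpi). MSCs are mesenchymal stromal cells, here of mouse origin, and IL-4 was expressed from transfected synthetic mRNA. Of the Sham mice, 2 belonged to week 1 (mice 0 and 1) and 3 to week 3 (mice 2, 3 and 4), a division the sample labels carry as a number in brackets and not as a week. That number was also the same for every mouse of an injured group, so whatever it stands for cannot be told apart from the group. Mice are named below by the number in their label. The labels call the tissue left cortex, although the protocol describes a slab around the injection site, and injections were into the hippocampus. All 9 cortical marker genes were detected in every library, and so were markers of hippocampus, thalamus, striatum and choroid plexus. Libraries held 29838423 to 41554322 estimated counts, and values are CPM, estimated counts scaled to the library total, unless TPM is named. In bulk tissue, fewer cells of a type, less RNA per cell and less of a brain region in the dissected slab cannot be told apart. How much of each region a library held was not measured directly.

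The members lay on several chromosomes in GRCm38. Drd1 lay on chromosome 13 (54051183 to 54055705, minus strand), Drd2 on chromosome 9 (49340627 to 49408177, plus strand) and Adora2a on chromosome 10 (75316877 to 75334784, plus strand). Tac1 lay on chromosome 6 (7554879 to 7565834, plus strand) and Penk on chromosome 4 (4133531 to 4138819, minus strand). Ppp1r1b (98348404 to 98357796, plus strand) and Rgs9 (109225355 to 109298129, minus strand) were both on chromosome 11. Adcy5 lay on chromosome 16 (35154877 to 35305738, plus strand) and Pde10a, the longest of the 9 with 461277 bases, on chromosome 17 (8525372 to 8986648, plus strand). Apart from the pair on chromosome 11, no 2 members shared a chromosome, although their values moved together.

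Because the members moved together, the sequence before the transcription start is shown for 3 of them. Rgs9 followed the other members with the least scatter, Adcy5 had the shallowest response, and Drd2 is a defining receptor. Each line gives the 250 bases before the RefSeq start on GRCm38.p6, read 5′ to 3′ on the strand of the gene. Capitals mark the GC box GGGCGG on either strand (CCGCCC where it is on the other strand) and the TATA box TATAAA.
Drd2, chr9:49340153-49340402, plus strand: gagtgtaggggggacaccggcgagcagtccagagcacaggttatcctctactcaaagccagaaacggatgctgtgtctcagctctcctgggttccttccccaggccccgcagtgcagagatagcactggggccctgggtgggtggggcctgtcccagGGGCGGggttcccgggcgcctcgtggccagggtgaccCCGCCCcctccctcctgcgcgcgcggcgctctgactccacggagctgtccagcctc
Rgs9, chr11:109298182-109298431, minus strand: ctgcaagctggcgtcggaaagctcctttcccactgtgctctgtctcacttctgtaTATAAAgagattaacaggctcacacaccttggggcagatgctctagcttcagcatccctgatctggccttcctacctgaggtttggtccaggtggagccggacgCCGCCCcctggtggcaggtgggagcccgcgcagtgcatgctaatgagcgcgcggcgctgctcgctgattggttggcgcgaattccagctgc
Adcy5, chr16:35154614-35154863, plus strand: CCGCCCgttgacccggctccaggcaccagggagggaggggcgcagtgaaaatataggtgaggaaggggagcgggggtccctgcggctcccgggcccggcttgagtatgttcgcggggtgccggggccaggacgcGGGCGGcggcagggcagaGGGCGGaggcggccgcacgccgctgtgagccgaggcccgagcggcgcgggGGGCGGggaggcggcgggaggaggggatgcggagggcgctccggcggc

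RefSeq windows were held for 6 of the 9 members (8 windows, since Drd1 and Pde10a have 2 each), and not for Penk, Ppp1r1b or Adora2a. The GC box was found in 6 of the 8 windows, at least once for each of the 6 genes, against 32.7% of all 32851 windows of this length. The GC content was 78% for Adcy5, 68.8% for Drd2 and 59.6% for Rgs9, where the median of all windows was 52.4%. The TATA box was found in the Rgs9 window, 195 to 190 bases before the start and not near it, and it occurs in 12.4% of all windows. The core of the cyclic AMP response element, TGACG, was found in the Tac1 window and in no window of the others, against 17.8% of all windows. The full element TGACGTCA, present in 1.55% of windows, was found in none. These are matches of letters and show no binding.

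**Figure D1:**
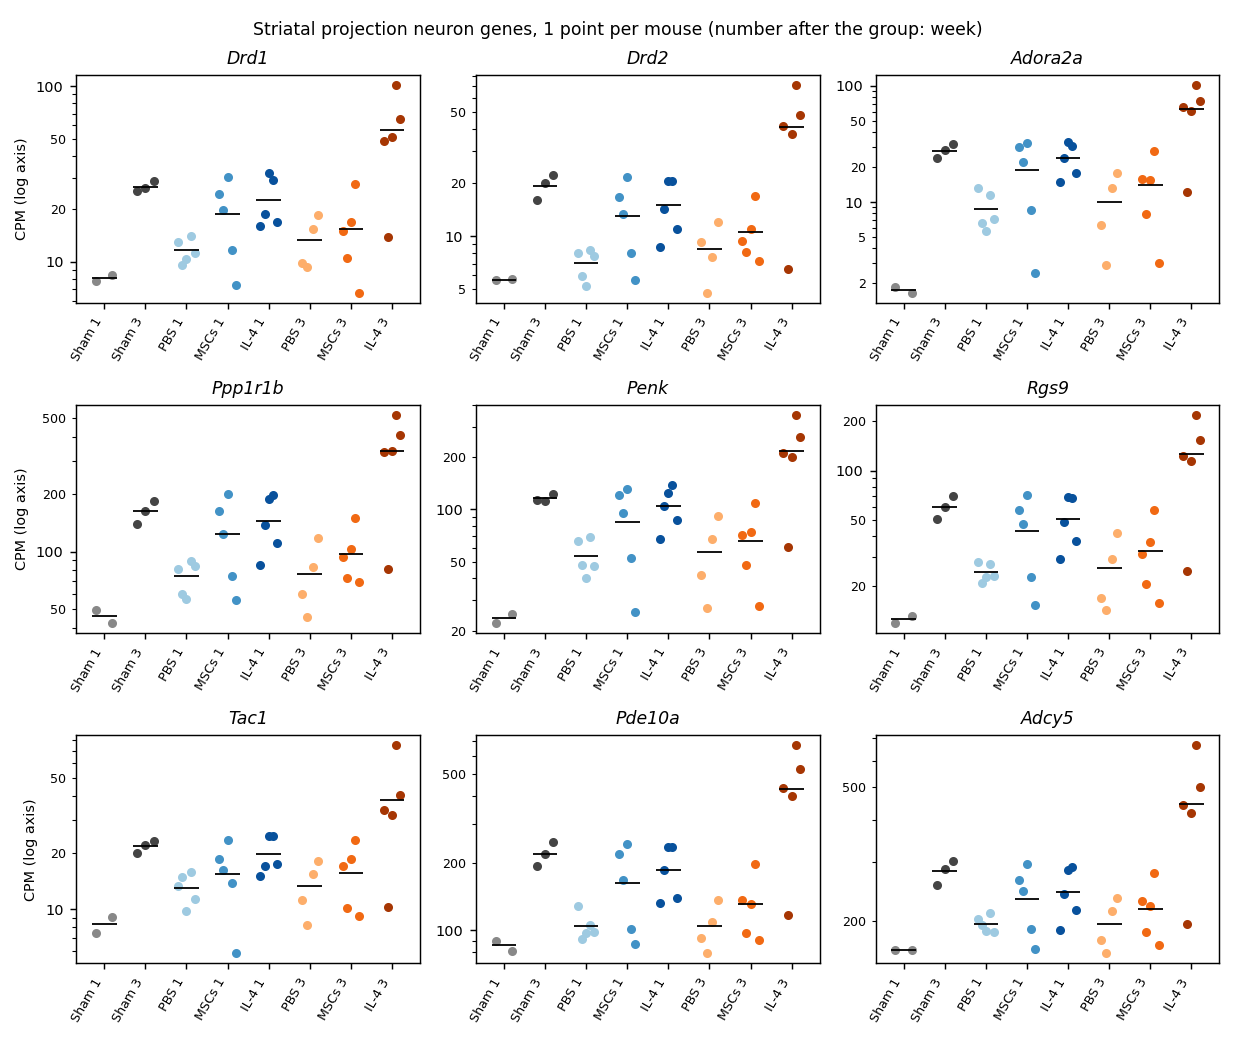
CPM of each member (log axis) in each of 34 mice, by group, with the week as the number after the group name, Sham of the 2 weeks apart and the mean as a bar. In all 9 panels 4 of the 5 mice given IL-4 MSCs stand above every other mouse at 3 wpi, the fifth lies within the range of PBS, and both week 1 Sham mice lie below the week 3 Sham mice.

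The highest levels of all 9 genes were found in mice given IL-4 MSCs at 3 wpi, but in 4 of those 5 mice. Mice 3, 4, 0 and 2 of that group were the 4 highest of the 34 mice in 9 of 9 members, and mouse 3 was the highest in 9 of 9. Mouse 1 of the same group lay within the range of PBS at 3 wpi in 9 of 9 members. The lowest levels were shared by the week 1 Sham mice and by mice of several injured groups.

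Among the receptors, Drd1, the D1 dopamine receptor, was at 48.9, 13.8, 51.5, 102 and 65.2 CPM in mice 0 to 4 of IL-4 MSCs at 3 wpi. In PBS at 3 wpi it was at 9.81, 9.40, 15.4 and 18.5 CPM, and in MSCs at 3 wpi at 15.1, 10.6, 16.9, 27.9 and 6.66 CPM. Mouse 1 of IL-4 MSCs was therefore below 2 of the 4 PBS mice, and the groups overlapped. The means were 56.3 ± 31.8 CPM (SD, n = 5) for IL-4 MSCs, 13.3 ± 4.45 CPM (n = 4) for PBS and 15.4 ± 8.04 CPM (n = 5) for MSCs. On the log2 scale the mean of Drd1 exceeded that of PBS by 1.88 after IL-4 MSCs, where the pooled SD was 0.87.

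At 1 wpi Drd1 was at 15.9, 18.6, 32.0, 29.2 and 16.9 CPM with IL-4 MSCs, at 24.3, 19.7, 30.3, 11.6 and 7.42 CPM with MSCs, and at 13.1, 9.55, 10.4, 14.1 and 11.2 CPM with PBS. All 5 mice given IL-4 MSCs were above all 5 mice given PBS, while those given MSCs overlapped with both. In Sham the week 1 mice were at 7.77 and 8.37 CPM and the week 3 mice at 25.2, 26.2 and 28.8 CPM. The uninjured mice therefore differed between the 2 weeks by more than they differed within either week.

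Drd2, the D2 dopamine receptor, was at 41.5, 6.50, 37.7, 71.0 and 48.3 CPM in mice 0 to 4 of IL-4 MSCs at 3 wpi. In PBS at 3 wpi it was at 9.27, 4.80, 7.65 and 11.9 CPM. Again 4 mice were above all PBS mice, and mouse 1 lay between the lowest PBS mouse and the other PBS mice. In week 1 Sham it was at 5.63 and 5.75 CPM, and in week 3 Sham at 15.9, 19.8 and 22.0 CPM. At 1 wpi the means were 15.0 ± 5.42 CPM for IL-4 MSCs, 13.0 ± 6.42 CPM for MSCs and 7.05 ± 1.38 CPM for PBS (SD, n = 5 each).

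Adora2a, the adenosine receptor of the indirect pathway, had the widest range of the 9. It was at 66.4, 12.2, 60.1, 102 and 73.8 CPM in IL-4 MSCs at 3 wpi, and at 6.40, 2.90, 13.3 and 17.9 CPM in PBS. In MSCs at 3 wpi it was at 15.6, 7.91, 15.6, 27.6 and 3.02 CPM. The highest mouse was 61.3-fold above the lowest over all 34 mice, compared with 15.3-fold for Drd1 and 14.8-fold for Drd2. The lowest values were those of the week 1 Sham mice, 1.87 and 1.66 CPM, whereas the week 3 Sham mice were at 23.8, 27.9 and 31.3 CPM. That difference within Sham was 3.92 on the log2 scale, larger than the 2.65 between IL-4 MSCs and PBS at 3 wpi.

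Of the peptide precursors, Penk, which yields the enkephalins of the indirect pathway, was at 212, 60.9, 201, 350.4 and 261 CPM in IL-4 MSCs at 3 wpi. In PBS at 3 wpi it was at 41.8, 27.0, 67.5 and 92.2 CPM. Tac1, which yields substance P in the direct pathway, was at 33.9, 10.2, 31.7, 74.8 and 40.4 CPM in the same IL-4 MSC mice. In PBS it was at 11.2, 8.24, 15.4 and 18.2 CPM. Precursors of both pathways thus had the same 4 high mice and the same low mouse. The lowest Tac1 value, 5.82 CPM, belonged to mouse 4 of MSCs at 1 wpi, and the lowest Penk value, 22.2 CPM, to a week 1 Sham mouse.

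Among the signalling proteins, Ppp1r1b, which encodes DARPP-32, was at 332, 81.0, 335, 519 and 407 CPM in IL-4 MSCs at 3 wpi. In PBS at 3 wpi it was at 59.9, 45.5, 83.0 and 117 CPM. The group means were 335 ± 161 CPM (SD, n = 5) and 76.5 ± 31.4 CPM (n = 4). Rgs9, a regulator of G protein signalling, had means of 127 ± 70.4 CPM and 25.4 ± 12.7 CPM in the same groups. Pde10a, the phosphodiesterase of projection neurons, had means of 429.6 ± 204 CPM and 104 ± 24.8 CPM.

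Adcy5, the main adenylyl cyclase of these neurons, had the narrowest range. It was at 443, 195, 418, 668 and 502 CPM in IL-4 MSCs at 3 wpi and at 175, 159.8, 213 and 233 CPM in PBS. The highest mouse of all 34 was 4.18-fold above the lowest. In Sham it was at 163 and 164 CPM in week 1 and at 256, 285 and 302 CPM in week 3, so the 2 weeks stood apart here as well.

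Differences between group means had the same sign in all 9 members within each comparison. IL-4 MSCs at 3 wpi were above PBS by 1.10 (Adcy5) to 2.65 (Adora2a) on the log2 scale, with a median of 1.88, and above MSCs by 0.96 to 2.22. At 1 wpi IL-4 MSCs were above PBS by 0.30 to 1.46, with a median of 0.91, and above MSCs by 0.08 to 0.76. MSCs were above PBS by 0.14 to 0.74 at 1 wpi and by 0.12 to 0.43 at 3 wpi. When single mice were left out, the smallest of these differences reached -0.03 for IL-4 MSCs against MSCs at 1 wpi, -0.04 for MSCs against PBS at 1 wpi and -0.14 for MSCs against PBS at 3 wpi, and all stayed above 0 for IL-4 MSCs against PBS at both weeks and against MSCs at 3 wpi. The comparisons within a week share groups with one another, so that their agreement in sign is not independent. The groups did not overlap in 5 members between IL-4 MSCs and PBS at 1 wpi, namely Drd1, Drd2, Adora2a, Rgs9 and Pde10a, where 11.5% of all genes tested had every IL-4 MSC mouse above every PBS mouse. They overlapped in all 9 members in the other 5 comparisons of injured groups within a week.

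The Sham mice of the 2 weeks did not overlap in the members. All 3 week 3 mice were above both week 1 mice in 9 of 9 members, by 0.78 (Adcy5) to 3.92 (Adora2a) on the log2 scale, with a median of 1.74. The share of all genes that separated in this way was not counted. With 3 and 2 mice, and members that moved together, the 9 of 9 is a description only. By mean log2 CPM of the 9 members, the week 1 Sham mice were the lowest of all 34 mice, at or below 4.12, and the week 3 Sham mice held positions 8, 9 and 12 from the top, at 6.18, 6.04 and 5.86. Treating Sham as 1 group therefore set its mean between levels that none of its mice had. For Drd1 the Sham mean was 19.3 ± 10.3 CPM (SD, n = 5), with no mouse between 8.37 and 25.2 CPM.

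The order of the groups by their mean CPM of Drd1 was IL-4 MSCs at 3 wpi, week 3 Sham, IL-4 MSCs at 1 wpi, MSCs at 1 wpi, MSCs at 3 wpi, PBS at 3 wpi, PBS at 1 wpi and week 1 Sham. Neighbours in this order overlapped in their single mice except for PBS at 1 wpi, whose lowest mouse (9.55 CPM) was above both week 1 Sham mice. Drd1 means were 26.8 ± 1.85 CPM in week 3 Sham (n = 3), 22.5 ± 7.49 CPM in IL-4 MSCs at 1 wpi and 18.7 ± 9.28 CPM in MSCs at 1 wpi (n = 5 each). Adjacent means among these 3 differed by less than the SD of either injured group.

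When levels were compared between genes, TPM was used, which accounts for transcript length. Penk had the highest median over the 34 mice with 177 TPM, followed by Ppp1r1b with 112 TPM, Adcy5 with 64.6 TPM, Pde10a with 44.8 TPM, Tac1 with 40.4 TPM, Rgs9 with 31.8 TPM and Adora2a with 23.5 TPM. The dopamine receptors had the lowest medians, 9.84 TPM for Drd1 and 8.71 TPM for Drd2.

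Members of both pathways rose and fell together, the receptors Drd1 and Drd2 by like amounts and Tac1 by less than Penk. The ratio of Drd1 to Drd2 in TPM lay between 0.645 and 1.48 over all 34 mice, with a median of 1.03, although each gene alone spanned 15.3-fold and 14.8-fold. At 3 wpi its median was 0.955 after IL-4 MSCs, compared with 1.23 after PBS. In single mice given IL-4 MSCs at 3 wpi it was 0.825, 1.48, 0.955, 1.01 and 0.946, so that mouse 1 had the highest ratio of the series. The ratio of Tac1 to Penk lay between 0.154 and 0.412, with 3 wpi medians of 0.171 after IL-4 MSCs and 0.259 after PBS, and 0.382 in week 1 Sham.

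**Figure D2:**
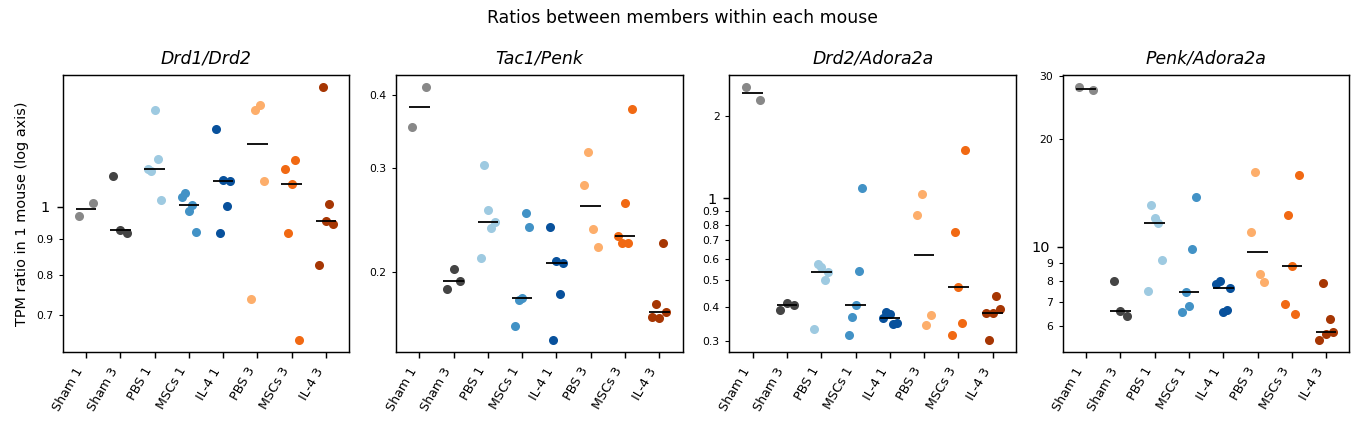
Ratios of the TPM of pairs of members in each mouse (log axis), by group and week, with the group median as a bar. Drd1/Drd2 stays between 0.645 and 1.48, whereas Drd2/Adora2a is 2.56 and 2.30 in the week 1 Sham mice and at or below 1.51 in all other mice.

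Adora2a departed from the other markers of the indirect pathway in the mice with the lowest levels. The ratio of Drd2 to Adora2a in TPM had a median of 0.399 over all mice. It was 2.56 and 2.30 in the week 1 Sham mice, and over 1 also in mouse 4 of MSCs at 3 wpi (1.51), mouse 4 of MSCs at 1 wpi (1.09) and mouse 1 of PBS at 3 wpi (1.04). The ratio of Penk to Adora2a was 27.9 and 27.4 in the week 1 Sham mice, against a median of 7.94. In these mice Adora2a was low by more than Drd2 and Penk. All of them were also among the 9 libraries with the dopamine transporter gene Slc6a3 over 10 CPM, described below. The part of that in these ratios was not tested.

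The response of each member to the others was summarised as its slope, in log2 CPM over the 34 mice, on the mean of the other 8. Drd1 (1.01), Ppp1r1b (0.984), Drd2 (1.04) and Penk (1.07) had slopes near 1. Rgs9 was at 1.17 with the smallest scatter around its line, a residual SD of 0.105 in log2 CPM. Adora2a had the steepest slope, 1.67, with a residual SD of 0.449. Pde10a was at 0.848, Tac1 at 0.760 and Adcy5 at 0.489. The members ranged widely compared with other genes. Over 16539 genes with a mean of at least 10 counts, the distance between the highest and the lowest mouse was as large as that of Adora2a (5.89 in log2 CPM) in 0.514% of genes and as large as that of Adcy5 (2.06) in 8.67%. Since that spread chose the members, these shares are a description.

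The 10 genes whose pattern over the 34 mice was most like that of the members were taken by the root mean square difference between their centred log2 CPM and the mean of the centred members, among 17087 genes. Among them were Syndig1l (0.15), Slc35d3 (0.16), Ido1 (0.24), Serpina9 (0.30), Rxrg (0.31), Rasd2 (0.31), Scn4b (0.33), Gpr6 (0.34) and Htr1d (0.35). For comparison, the members themselves lay between 0.13 (Ppp1r1b) and 0.63 (Adora2a). Syndig1l ranged from 8.49 CPM in a week 1 Sham mouse to 86.0 CPM in mouse 3 of IL-4 MSCs at 3 wpi. In all 10 genes that mouse was the highest. Of these genes 8 of 10 were in the list of other striatal genes tested below, and Serpina9 and Htr1d were in no list. That list was chosen with earlier results of these data known, so the overlap is a description.

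To see whether genes outside the 9 differed between groups, 29 other striatal genes were tested, a list of receptors, transcription factors and channels known from striatum. They were measured in the same libraries, and the list was chosen with earlier results of these data known. They are therefore not independent evidence of what the members show. At 3 wpi 23 of 29 were higher after IL-4 MSCs than after PBS and none was lower (edgeR quasi-likelihood test, adjusted p under 0.05), where 2.94% of all genes tested passed. The median log2 fold change of the 29 was 1.22, against 0.01 for all genes tested. Against MSCs 23 of 29 were higher, with a median of 0.97, where 3.47% of all genes passed. Against Sham of both weeks 20 of 29 were higher, with a median of 0.93, where 4.27% of all genes passed. These comparisons share the IL-4 MSC mice.

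Among the 5 genes with the largest differences between IL-4 MSCs and PBS at 3 wpi were Sh3rf2, Gpr6, Ido1 and Slc35d3. Gpr6, an orphan receptor of indirect pathway neurons, was at 13.4, 2.42, 13.3, 23.8 and 14.8 CPM with IL-4 MSCs and at 1.89, 2.22, 2.90 and 3.21 CPM with PBS. As in the members, 4 mice were above all PBS mice and mouse 1 was within their range. Its log2 fold change was 2.42 ± 0.54 (SE, adjusted p = 0.0108 by edgeR's quasi-likelihood test). Those of Sh3rf2, Ido1 and Slc35d3 were 2.59, 2.36 and 2.27. Syndig1l (1.84) and Rxrg, a retinoid receptor of the striatum (1.57 against Sham), entered among the 5 largest against MSCs and against Sham. Transcription factors of striatal neurons were among the smaller differences, such as Foxp1 with 0.63 ± 0.11 (adjusted p = 0.00345) and Bcl11b with 0.53 ± 0.12 (adjusted p = 0.0151). Isl1, Ebf1, Six3, Foxp2, Pdyn and Drd3 did not pass the test in this comparison, with adjusted p-values from 0.0863 (Pdyn) to 0.860 (Ebf1).

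When only both groups of a comparison entered the fit, 0 of 29 passed between IL-4 MSCs and PBS, 0 against MSCs and 0 against Sham at 3 wpi. Without mouse 3 of IL-4 MSCs, 14, 8 and 6 of 29 passed in the same order of comparisons. Without mouse 0 of PBS at 3 wpi, 12 of 29 passed against PBS, and against Sham 6, 8 and 7 passed without Sham mouse 0, without Sham mouse 1 and without IL-4 MSC mouse 4. Against the 3 week 3 Sham mice alone, 0 of 29 passed, with a median of 0.73. For none of these fits is the share of all genes passing given, so the counts cannot be set against it.

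**Figure D3:**
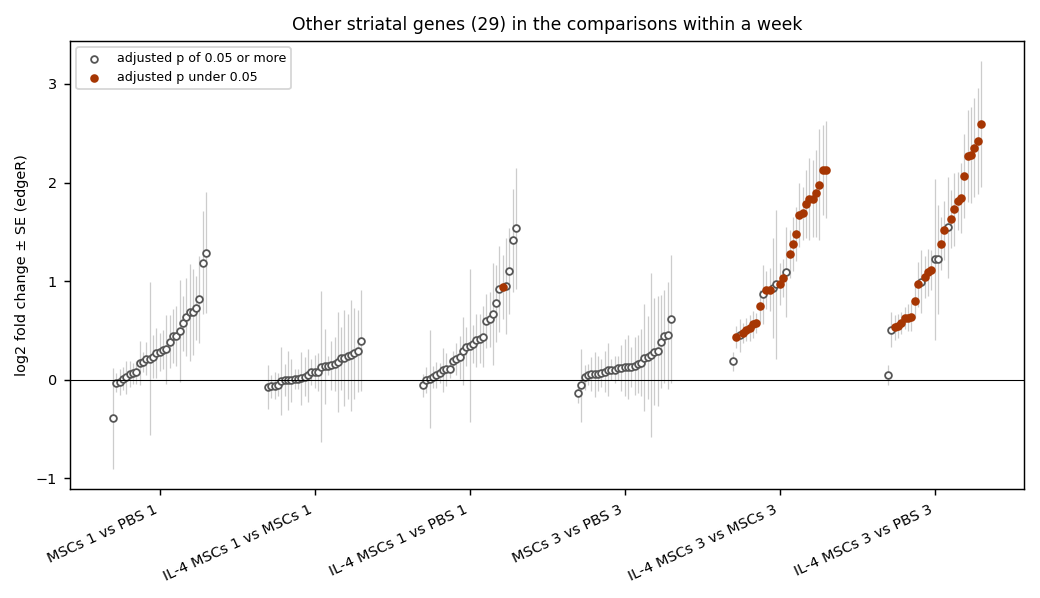
Log2 fold change with its SE (edgeR, vertical axis) of each of 29 other striatal genes in the 6 comparisons of injured groups within a week (horizontal axis), filled where the adjusted p was under 0.05. Filled points are 23 of 29 for IL-4 MSCs at 3 wpi against PBS, 23 of 29 against MSCs, 1 of 29 for IL-4 MSCs against PBS at 1 wpi, and 0 in the other 3 comparisons.

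At 1 wpi, between IL-4 MSCs and PBS 1 of 29 passed, Scn4b, a sodium channel subunit, with a log2 fold change of 0.94 ± 0.32 (adjusted p = 0.0403, edgeR quasi-likelihood test), where 17.4% of all genes passed. Scn4b was at 97.8, 151, 186, 174 and 129 CPM with IL-4 MSCs and at 75.5, 58.4, 63.9, 82.7 and 93.4 CPM with PBS, without overlap. The median of the 29 was 0.35 and 27 of 29 were above 0. With only these 2 groups in the fit 12 of 29 passed, and without single mice 0 to 2 did. The 0 occurred without PBS mouse 0, 1, 2 or 3 or without IL-4 MSC mouse 1, 2 or 3. The share of all genes passing is not given for these alternative fits, so their counts cannot be set against it.

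For IL-4 MSCs against MSCs at 1 wpi 0 of 29 passed (0 at an unadjusted p under 0.05, 0 by DESeq2), where 8.69% of all genes did, with a median of 0.08. Between MSCs and PBS 0 of 29 passed at 1 wpi (3 unadjusted, 0 by DESeq2), where 0.123% of all genes did, with a median of 0.28. At 3 wpi 0 of 29 passed between MSCs and PBS (0 unadjusted, 0 by DESeq2), where 0.0817% of all genes did, with a median of 0.13. These 3 comparisons gave no call on this list.

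Comparisons with Sham depended on which Sham mice were used. With the 5 Sham mice as 1 group, Chrm4, the M4 muscarinic receptor of direct pathway neurons, was the 1 gene of 29 that was lower in PBS at 1 wpi (log2 fold change -0.58 ± 0.16, adjusted p = 0.0151, edgeR quasi-likelihood test), where 13.8% of all genes passed. The median of the list was -0.36. Chrm4 was at 11.8, 10.9, 13.7, 13.2 and 14.2 CPM in PBS and at 14.3, 16.8, 18.0, 19.9 and 23.8 CPM in Sham. No PBS mouse reached the lowest Sham mouse, although the closest values were 14.2 and 14.3 CPM. For MSCs at 1 wpi 0 of 29 passed (2 lower unadjusted, 0 by DESeq2) beside 17.8% of all genes, and for IL-4 MSCs at 1 wpi 0 of 29 passed (1 lower unadjusted, 0 by DESeq2) beside 37% of all genes. For PBS at 3 wpi 0 of 29 passed (1 lower unadjusted, 0 by DESeq2) beside 0.0292% of all genes, and for MSCs at 3 wpi 0 of 29 (0 unadjusted, 0 by DESeq2) beside 1.15%.

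Against the 2 week 1 Sham mice alone the median for PBS at 1 wpi was 0.24 instead of -0.36, and 0 of 29 passed. For MSCs at 1 wpi 4 of 29 were then higher and for IL-4 MSCs 8 of 29, with medians of 0.57 and 0.70. Libraries with the dopamine transporter gene Slc6a3 over 10 CPM, described below, were also left out, a choice made after seeing the data. This removed both week 1 Sham mice, the lowest of all mice on the members, and mouse 4 of PBS at 1 wpi. The other 4 PBS mice were then compared with the 3 week 3 Sham mice, and 9 of 29 were lower, with a median of -0.60. With the lowest Sham mice removed, a shift in this direction was built into the choice, and it is not separate support. Shares of all genes passing in these fits are not given here, so these counts cannot be set against them. By the medians, the direction against Sham at 1 wpi changed with the Sham mice, for this list of genes and in the PBS group. The last of these fits also lacked 1 PBS mouse.

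IL-4 MSCs differed more from PBS at 3 wpi than at 1 wpi in 3 of 29 genes by the test of the interaction in edgeR, where 4.72% of all genes passed. They differed more from MSCs at 3 wpi in 14 of 29, where 7.86% of all genes passed. Leaving out single mice moved these counts to between 0 and 16 and to between 2 and 22, and each rose most without mouse 1 of IL-4 MSCs at 3 wpi. Of the other settings, 0 and 2 of 29 passed without the libraries with the dopamine transporter gene Slc6a3 over 10 CPM. Shares of all genes passing without single mice or without those libraries are not given.

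The signalling chain around the members was tested in 20 genes with roles in cyclic AMP and phosphatase signalling. In IL-4 MSCs against PBS at 3 wpi 10 of 20 rose and none fell, beside 2.94% of all genes. The median log2 fold change was 0.22. This list and those below were not run under the alternative settings given for the other striatal genes. The largest were Gng7, the gamma subunit of the striatal G protein (1.32 ± 0.23, adjusted p = 0.00345 by edgeR), Pde1b, a calcium-dependent phosphodiesterase (1.12 ± 0.20), and Gnal, the alpha subunit that couples D1 and Adora2a receptors to Adcy5 (0.74 ± 0.17). Gng7 was at 235, 95.0, 239.5, 410.4 and 292 CPM with IL-4 MSCs and at 94.6, 102, 107 and 107 CPM with PBS. Mouse 1 was again at the level of PBS. At 1 wpi 0 of 20 passed (1 higher and 5 lower unadjusted), beside 17.4% of all genes, with a median of -0.04.

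Of the other adenylyl cyclases 1 of 8 passed at 3 wpi, beside 2.94% of all genes. This was Adcy8, a calcium-stimulated cyclase, which fell by 0.48 ± 0.11 in log2 (adjusted p = 0.0131, edgeR). It was at 30.2, 41.1, 30.2, 22.6 and 25.5 CPM with IL-4 MSCs and at 42.8, 41.5, 44.8 and 38.7 CPM with PBS. Its low mice were the 4 in which the members were high. At 1 wpi 3 of 8 passed, beside 17.4% of all genes, where the median of the 8 was -0.12. Adcy4 (0.60) and Adcy7 (0.56) rose and Adcy3 fell by 0.17.

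Of receptors for opioids, tachykinins, adenosine, dopamine and related ligands, 10 of 11 passed the filter. Drd4 was the exception, with 12 counts at most in a library. At 3 wpi 1 of 10 passed, beside 2.94% of all genes, and the median was 0.10. This was Oprd1, the delta opioid receptor that binds enkephalins (0.43 ± 0.12, adjusted p = 0.0416, edgeR). At 1 wpi 3 of 10 passed, beside 17.4% of all genes, with a median of 0.01. Adora2b rose by 0.33, Drd5 fell by 0.61 and Grm5 fell by 0.21.

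Markers of other cell types were followed over the same libraries. Scores are the mean log2 CPM of a list in a mouse. The score of hippocampus markers (10 genes) was between 1.87 and 3.43 in the 4 mice with the highest members and between 3.68 and 4.66 in the other 30 mice. In IL-4 MSCs at 3 wpi it was 2.33, 4.38, 3.43, 1.87 and 3.22 in mice 0 to 4. Prox1, a marker of the dentate gyrus, was chosen after its values were seen. It was at 39.2, 78.4, 46.1, 19.4 and 41.0 CPM in these mice, against a median of 66.2 CPM over all mice. Mouse 1, with low members, thus had the highest Prox1 level of the 34 mice, and mouse 3, with the highest members, had the lowest. On the whole list mouse 3 was also the lowest, but mouse 1, at 4.38, was below the highest score of 4.66.

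**Figure D4:**
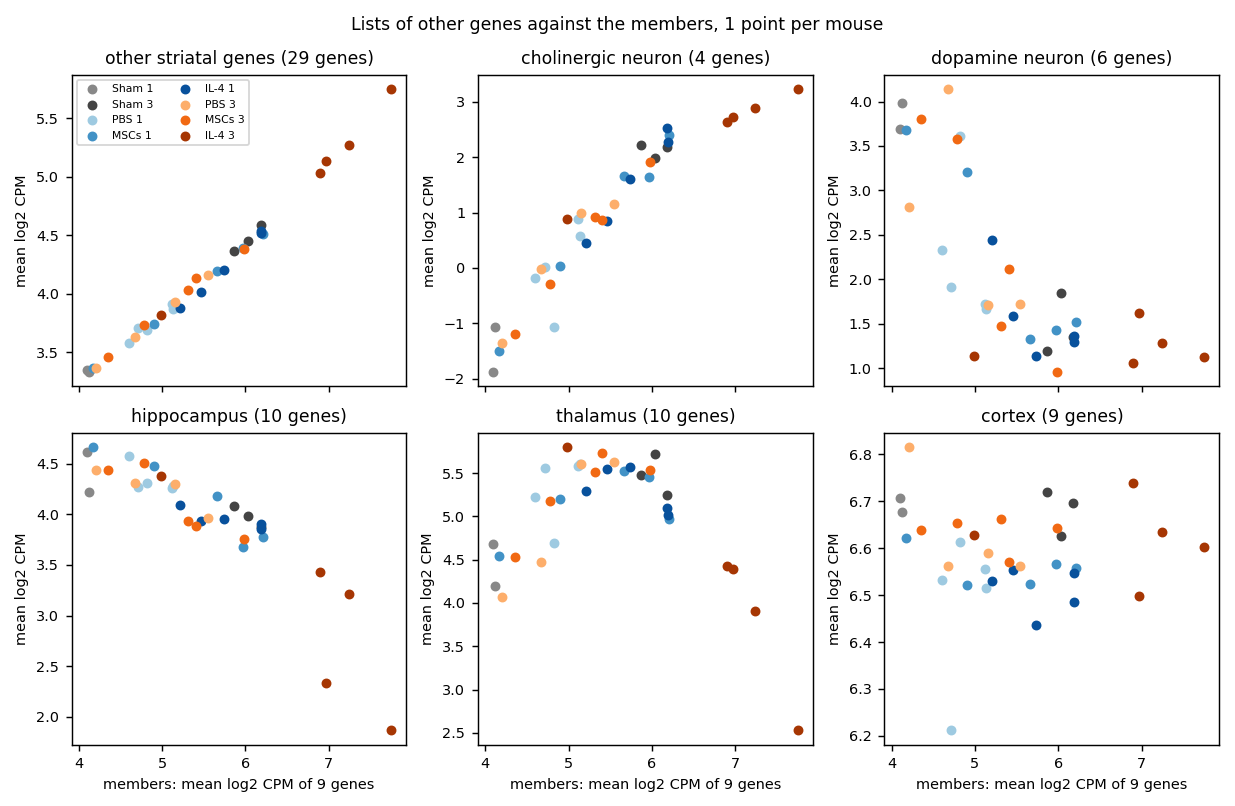
Mean log2 CPM of 6 marker lists (vertical axis) against the mean log2 CPM of the 9 members (horizontal axis) in each of 34 mice, coloured by group and week. Hippocampus scores are lowest in the 4 mice with the highest members, dopamine neuron scores of 2.81 to 4.14 belong to 9 mice with members at or below 4.90, and cortex scores stay between 6.21 and 6.82.

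Thalamus markers (10 genes) had scores of 4.39, 5.80, 4.43, 2.53 and 3.91 in mice 0 to 4 of IL-4 MSCs at 3 wpi, and between 4.07 and 5.73 in the other 29 mice. Shox2 was at or under 3 counts in mouse 3 and at up to 35.6 CPM elsewhere. The mouse with the highest members thus had the lowest scores of both lists, while mice 0 and 2 were within the range of other mice for thalamus. By the test between IL-4 MSCs and PBS at 3 wpi, 1 of 10 hippocampus genes passed and was lower (edgeR), beside 2.94% of all genes. The median was -1.07, and 10 of 10 genes were lower at an unadjusted p under 0.05. For thalamus 0 of 10 passed (2 lower unadjusted), with a median of -0.55. At 1 wpi 0 of 10 passed for hippocampus (2 lower unadjusted, median -0.47) and 0 of 10 for thalamus (0 unadjusted, median -0.07), beside 17.4% of all genes.

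Slc6a3, the dopamine transporter, whose transcript is made in the cell bodies of dopamine neurons, was over 10 CPM in 9 of 34 libraries, at 15.0 to 45.9 CPM, and at or under 7.26 CPM in the other 25. The 9 libraries were both week 1 Sham mice (39.0 and 42.0 CPM), mouse 4 of PBS at 1 wpi, mice 0 and 1 of PBS at 3 wpi, mice 3 and 4 of MSCs at 1 wpi and mice 1 and 4 of MSCs at 3 wpi. No mouse given IL-4 MSCs was among them, although the highest of these at 1 wpi reached 7.21 CPM. By the mean of the members these 9 libraries held 9 of the 11 lowest positions, with means at or below 4.90, and the other 2 of those positions were mice 1 and 2 of PBS at 1 wpi. Week 3 Sham mice had 0.130, 0.553 and 0.244 CPM of Slc6a3.

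The whole dopamine neuron list (6 genes) had scores of 2.81 to 4.14 in those 9 libraries and of 0.96 to 2.44 in the other 25, and its defining genes Slc6a3 and Pitx3 were at or under 3 counts in 2 and 22 libraries. No gene of the list passed at either week between IL-4 MSCs and PBS (0 of 6 each by edgeR, with 4 lower unadjusted at 3 wpi and 0 at 1 wpi). The medians were -1.42 and -0.75, and 2.94% and 17.4% of all genes passed. The part of these markers in the differences of the members was not tested. The 9 libraries were also left out, a choice made after seeing the data. The median of the 29 other striatal genes for IL-4 MSCs against PBS at 3 wpi was then 1.11, beside 1.22 with all libraries. With 2 PBS mice left, 0 of 29 passed, and the share of all genes passing in that fit is not given.

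The cholinergic list (4 genes) had scores of 2.63 to 3.24 in the 4 mice with the highest members and of -1.88 to 2.54 in the other 30. At 3 wpi 1 of 4 passed between IL-4 MSCs and PBS, beside 2.94% of all genes, with 4 of 4 higher unadjusted and a median of 1.88. This was Lhx8, a transcription factor of cholinergic neurons (3.63 ± 1.02, adjusted p = 0.0434, edgeR). Lhx8 was at 4.62, 0.440, 3.61, 7.99 and 5.34 CPM with IL-4 MSCs and at 0.109, 0.0322, 0.555 and 0.721 CPM with PBS, so that mouse 1 was below 2 PBS mice. The value of 0.0322 CPM was under the 3-count floor of its library (0.0966 CPM). That of 0.109 CPM was near its own (0.0820 CPM), so the size of this fold change is uncertain. At 1 wpi 0 of 4 passed (4 higher unadjusted), beside 17.4% of all genes, with a median of 1.39.

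Of the inhibitory interneuron markers 2 of 6 were higher in IL-4 MSCs than PBS at 3 wpi by edgeR, beside 2.94% of all genes. These were Npy (0.46 ± 0.13) and Gad1 (0.41 ± 0.10). Gad1, a synthetic enzyme of GABA, is also made by striatal projection neurons. At 1 wpi 2 of 6 passed, Pvalb (0.39) and Npy (0.36), beside 17.4% of all genes. The medians were 0.25 and 0.08.

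Scores of the cortex list (9 genes) stayed between 6.21 and 6.82 over all 34 mice, and those of the neuron list (8 genes) between 9.01 and 9.24. Between IL-4 MSCs and PBS 0 of 9 cortex genes passed at 3 wpi (3 higher and 1 lower unadjusted, median 0.10) and at 1 wpi (1 higher and 1 lower unadjusted, median 0.05). Of all genes 2.94% passed at 3 wpi and 17.4% at 1 wpi. Of 8 neuron genes 0 passed at 3 wpi (1 higher and 2 lower unadjusted, median -0.06), and at 1 wpi 2 of 8 passed, beside 17.4% of all genes, where Map2 fell by 0.18 and Syt1 fell by 0.11, with a median of -0.08. Choroid plexus markers gave 0 of 7 calls at both weeks (1 higher unadjusted at 3 wpi and 0 at 1 wpi, medians 0.72 and 0.05). Of 5 microglia and macrophage markers 3 rose at 1 wpi, beside 17.4% of all genes called in either direction, Cd68 (1.34), Aif1 (0.48) and Csf1r (0.37), with a median of 0.37, and 0 passed at 3 wpi (1 higher unadjusted, median 0.12).

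The 4 mice with the highest members were all given IL-4 MSCs at 3 wpi and were picked by their member values. Their separation from the other 30 mice is therefore a description. Marker lists stood apart in several directions over these 4 mice. Their scores were above all other 30 mice for the other striatal genes (5.03 to 5.75 against 3.33 to 4.59), the signalling chain, the cholinergic list and the inhibitory interneuron list. They were below all other mice for hippocampus and for the other adenylyl cyclases (5.55 to 5.72 against 5.74 to 6.03). The part of any of these in the differences between groups was not tested.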

How the data were processed

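Left brain tissue of 34 mice was sequenced as paired reads. Per the study's methods, the authors trimmed reads with cutadapt 2.4, checked them with FastQC 0.11.8, and deposited estimated counts and TPM per gene, made with kallisto 0.46 against protein-coding transcripts of GENCODE on GRCm38, with sleuth 0.30 in R 3.6.1. Such pseudoalignment shares reads between similar transcripts. The 63 columns of the authors' own comparisons (fold changes and p-values) were not used. The labels hold 35 samples, and 1 library of PBS at 3 wpi was not analysed here.

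CPM were computed from the estimated counts over library totals (29838423 to 41554322), and log2 values with a prior count of 2. Their 3-count floor covers counting error only. Estimated counts were rounded and tested with edgeR 4.0.16 (R 4.3.3, quasi-likelihood, all 7 groups in 1 fit, filterByExpr, TMM, Benjamini-Hochberg over 17131 genes), and DESeq2 1.42.0 was an alternative. Code was tested on simulated data. Members and lists were chosen with earlier results of these data known. Named genes were the members, the 10 genes most like them, the up to 5 called genes with the largest change per comparison among other striatal genes, and the up to 3 per other list for IL-4 MSCs against PBS. Further genes (Foxp1, Bcl11b, Prox1, Shox2, Slc6a3, Pitx3, Drd4, genes with an interaction and the 6 uncalled striatal genes) were chosen after their values were seen. Some genes that the rule names are not reported here. Mice are separate animals. Sequences and gene positions came from RefSeq (GRCm38.p6) and GENCODE (GRCm38).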

Additional observations from a re-analysis of the deposited data

Results flagged for a closer look

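A mouse lay far from the rest of its group, by the gap to its nearest neighbour, in 10 of 91 combinations of list and group and in 0 of 63 of member and group, where chance gives about 1 in 20. In IL-4 MSCs at 3 wpi, mouse 1, which had low members, had a cholinergic score of 0.88 (others 2.63 to 3.24) and an inhibitory interneuron score of 5.95 (others 6.39 to 6.44), both as mean log2 CPM. Cortex scores stood apart in mouse 1 of PBS at 1 wpi (6.21), in mouse 1 of PBS at 3 wpi (6.82) and in mouse 2 of MSCs at 3 wpi (6.57). Other such scores were 6.03 for the other adenylyl cyclases in mouse 4 of MSCs at 3 wpi, 4.58 for hippocampus in mouse 2 of PBS at 1 wpi and 9.12 for neurons in mouse 4 of IL-4 MSCs at 1 wpi. Microglia scores stood apart in mouse 4 of Sham (4.61) and mouse 2 of MSCs at 1 wpi (5.51).

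IL-4 MSCs differed more from PBS at 3 wpi than at 1 wpi in 3 of 29 other striatal genes by the edgeR interaction test, Lrrc10b by 1.41 ± 0.39 (SE, adjusted p = 0.0315), Bcl11b by 0.59 ± 0.17 (adjusted p = 0.0384) and Ptpn5 by 0.50 ± 0.15 (adjusted p = 0.0486) in log2. They differed more from MSCs at 3 wpi in 14 of 29. The largest of these 14 were Rxrg (1.80 ± 0.48), Syndig1l (1.70 ± 0.54), Lrrc10b (1.67 ± 0.38) and Scn4b (1.45 ± 0.45).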

How the results depend on the processing

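Counts are of the 29 other striatal genes, in edgeR unless named. Shares of all genes passing under these settings are not given, so the counts cannot be set against them. With only both groups in the fit, 12 were called for IL-4 MSCs against PBS at 1 wpi, 4 for PBS and 1 for IL-4 MSCs against Sham at 1 wpi, and 0 for IL-4 MSCs at 3 wpi against each of PBS, MSCs and Sham. For PBS at 1 wpi against Sham, DESeq2 size factors gave 2 and the DESeq2 Wald test 2, and that test gave 2 for IL-4 MSCs against PBS at 1 wpi. Replicate numbers did not pair the mice (99 pairs, r from -0.299 to 0.411, 30 over 0.1), and the replicate block gave 2 for PBS and 1 for IL-4 MSCs against Sham at 1 wpi and moved no other count by over 1.5 times. With Sham mice of the same week, counts at 1 wpi were 8 for IL-4 MSCs, 4 for MSCs and 0 for PBS, and IL-4 MSCs at 3 wpi gave 0. Without the 9 libraries with Slc6a3 over 10 CPM, a choice made after seeing the data, they were 4 for IL-4 MSCs against PBS and 9 for PBS against Sham at 1 wpi, 0, 0 and 1 for IL-4 MSCs at 3 wpi against PBS, MSCs and Sham, and 0 and 2 for the interaction of week with IL-4 MSCs against PBS and against MSCs. Leaving out single mice gave 0 to 2 for PBS against Sham and for IL-4 MSCs against PBS at 1 wpi, 12 to 25, 8 to 24 and 6 to 25 for IL-4 MSCs at 3 wpi against PBS, MSCs and Sham, and 0 to 16 and 2 to 22 for the 2 interactions. The cause was not tested. No filter on low counts moved no count by over 1.5 times. By Pearson's correlation over all mice or within groups, 6 of the 10 genes most like the members were shared. Member means and differences moved by less than 1 SD under each alternative run. A depth of 3 counts, 0.0722 to 0.101 CPM, limits the rare markers only.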
